A study of Mus musculus with 7 samples.

Results

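The nuclear factor I (NFI) family was described in the nuclei of 4 mouse lung tumors. Its members were taken by gene symbol: Nfia, Nfib, Nfic and Nfix, 4 of the 56941 genes listed for every animal, and all 4 were present in each of the 4 tables. NFI proteins are transcription factors that bind, as homodimers or as heterodimers with each other, to a palindrome made of TTGGC and its reverse complement through a shared N-terminal DNA-binding domain. The members overlap in the sites they bind and differ in the tissues they are known for. Nfib is required for lung maturation and is a well known oncogene of small cell lung cancer (SCLC), where it is amplified in many mouse tumors and has been tied to open chromatin and metastasis. Nfia is best known for the switch of neural progenitors to glia, Nfix for muscle and neural stem cells, and Nfic for tooth root formation.

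The tumors were SCLC of 4 male mice at the endpoint of the experiment. The 2 RP animals carried Rb1 fl/fl and Trp53 fl/fl, and the 2 RPC animals additionally lacked Casp8, the gene of the cell death protease caspase 8, which the labels write as Casp8-/- and the study describes as a floxed allele deleted in the same step. Every animal had inhaled adenoviral Cre driven by the ubiquitous CMV promoter through the trachea as a young adult, so recombination was not restricted to one cell type, and Rb1 and Trp53 were targeted in both groups. Nuclei were isolated from fresh-frozen tissue, barcoded by split pooling in wells and sequenced in 7 libraries, called sublibraries here, each of which held nuclei of all 4 animals. The replicate is therefore the animal, with 2 per genotype.

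After filtering, 38254 of 38353 nuclei were kept, with 8363 for RP1, 8874 for RP2, 10853 for RPC1 and 10164 for RPC2. The median number of transcripts per nucleus lay between 2223 and 3392, the RPC animals were sequenced more deeply than the RP animals, and the ribosomal transcript Rn18s-rs5 made up between 3.09% and 9.99% of an animal's transcripts. No barcode and no well was shared between animals. Clusters were named from lists of marker genes, and the 4 members were kept out of the genes used for clustering. Clusters in which no list of another cell type stood out were called tumor-like and held between 7165 and 9224 nuclei per animal. Their score on the neuroendocrine list, a median log2 difference from all other nuclei, lay between −0.22 and 0.26, so the name does not rest on it, and 1 unnamed cluster scored 0.73. The neuroendocrine genes were nevertheless expressed in tumor-like nuclei, with Syt1, a synaptic vesicle protein gene, at 1370 to 2009 CPM (transcripts of a gene in the summed nuclei of a class, scaled to a common total), and Calca, a neuropeptide gene, at 703 to 1792 CPM, whereas Dll3, a Notch ligand, was low at 4.70 to 10.6 CPM. A further 9 classes had at least 20 nuclei in every animal: alveolar type 1-like, alveolar type 2-like, B cell-like, club-like, endothelial-like, fibroblast-like, macrophage or monocyte-like, smooth muscle or pericyte-like, and T or NK cell-like.

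Wherever 4 values follow each other, they belong to RP1, RP2, RPC1 and RPC2 in that order. The targeted gene was examined first. In tumor-like nuclei Casp8 lay at 57.0, 60.6, 91.6 and 66.8 CPM, and was thus not lower in the RPC animals. Rb1, which was targeted in both groups, lay at 309, 334, 395 and 436 CPM in tumor-like nuclei and at 297, 291, 351 and 401 CPM in endothelial-like nuclei. Trp53, also targeted in both groups, lay at 12.8, 12.6, 18.7 and 12.7 CPM in tumor-like nuclei, below the 21.9, 20.5, 22.3 and 21.3 CPM of endothelial-like nuclei in all 4 animals, the latter from 10 to 29 transcripts each. The counts are summed over the whole gene and do not separate the deleted part, so they check neither allele, and the genotypes are as labelled throughout.

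The 4 genes differ greatly in length, which matters in nuclei because intronic reads count. On GRCm39, Nfia (ENSMUSG00000028565) lies on the plus strand at chr4:97660971-98007111, Nfib (ENSMUSG00000008575) on the minus strand at chr4:82208410-82623987, Nfic (ENSMUSG00000055053) on the minus strand at chr10:81232020-81291469 and Nfix (ENSMUSG00000001911) on the minus strand at chr8:85426505-85527046. All are protein coding. Introns make up 96.7% of the span of Nfia, 96.1% of Nfib, 88.8% of Nfic and 92.6% of Nfix. Several annotated genes lie within or across them, such as E130114P18Rik on the opposite strand at the start of Nfia, Gm11266 inside Nfib, Gm16104 inside Nfic and Trmt1 and Lyl1 inside or across the end of Nfix. Whether counting used the strand is not given in the sources used here, so reads of these genes and of the members cannot be told apart.

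The promoters of 2 members are shown because their genes, Nfia and Nfix, had the most similar patterns over classes of any member pair, as described further on. They are RefSeq sequences, read on the strand of the gene, with 250 bases before and 50 bases after the annotated start, on GRCm38.p6, a build other than that of the gene positions above. The windows are therefore not placed against those positions, and their annotated start need not be that of the gene span. Capitals mark TTGGC or its reverse complement GCCAA. RefSeq entries matched 3 of the 4 members, and Nfib had none. Nfix had 4 annotated windows with 2, 1, 1 and 0 matches, and the one with the most is shown.
Nfia, chr4:97581693-97581992, plus strand: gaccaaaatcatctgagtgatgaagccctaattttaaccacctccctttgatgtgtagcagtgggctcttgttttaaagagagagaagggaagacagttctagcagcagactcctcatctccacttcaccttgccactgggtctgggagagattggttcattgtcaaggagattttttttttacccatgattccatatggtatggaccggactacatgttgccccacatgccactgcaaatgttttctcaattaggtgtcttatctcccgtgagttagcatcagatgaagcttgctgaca
Nfix, chr8:84772826-84773125, minus strand: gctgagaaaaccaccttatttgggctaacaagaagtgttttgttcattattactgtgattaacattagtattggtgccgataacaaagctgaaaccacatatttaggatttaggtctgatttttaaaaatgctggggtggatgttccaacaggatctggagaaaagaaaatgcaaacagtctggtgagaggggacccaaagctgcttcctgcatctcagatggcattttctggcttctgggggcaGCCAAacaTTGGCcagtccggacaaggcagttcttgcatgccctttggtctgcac
The Nfia window held no match, and this Nfix window held 2, next to each other around the start. TTGGC on either strand occurred in 46.7% of the 32851 promoters in the table, the longer TTGGCA in 14.1%, and the full NFI palindrome, TTGGC and GCCAA with 5 free bases between them, in 0.0365%. Neither window shown held the full palindrome, and in the Nfix window GCCAA came before TTGGC, the reverse of its order. These matches describe letters and not bound sites.

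Nfib was the dominant family member of the tumor-like nuclei. Its level was 1075, 1181, 1709 and 1213 CPM, that is 1295 ± 282 CPM (SD, n = 4), from between 29757 and 90506 transcripts per animal. RPC1 stood above the others, and RP1, RP2 and RPC2 lay close together. Nfic followed at 122, 97.4, 103 and 103 CPM (106 ± 10.9 CPM) and was the steadiest of the 4. Nfix was found at 87.3, 81.7, 116 and 38.7 CPM (80.8 ± 31.8 CPM), with RPC2 below the rest. Nfia had 35.8, 84.2, 96.7 and 176 CPM (98.2 ± 58.3 CPM), the widest spread, with RP1 lowest and RPC2 highest.

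Levels of different genes can only be compared per length. Per kilobase of gene span, Nfib made up 46.1%, 51.3%, 56.5% and 52.6% of the summed level of the 4 members. Nfic contributed between 23.8% and 36.7%, Nfix between 6.94% and 15.8%, and Nfia between 1.84% and 9.18%. Nfib therefore came first in all 4 animals and Nfia came last in 3, with Nfix last in RPC2. Per kilobase of exon, the mean share of Nfib was 68.6% in place of 51.6% and that of Nfic 14.3% in place of 30.3%. The per-kilobase ratio of Nfib to Nfia was 25.0, 11.7, 14.7 and 5.73 in tumor-like nuclei, against 3.18, 4.94, 4.23 and 2.99 in endothelial-like, 1.43, 1.99, 2.22 and 0.944 in club-like and 0.920, 1.86, 1.40 and 1.80 in fibroblast-like nuclei. The lowest tumor-like ratio was above the highest ratio of each of those 3 classes. It was not apart from B cell-like (17.5, 7.68, 13.6 and 9.24) or T or NK cell-like nuclei (15.8, 8.86, 4.03 and 7.33).

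In single nuclei Nfib was also the member detected most often, and the order of the others varied between animals. Nuclei with at least 1000 transcripts were thinned to 1000, which left 6345, 6522, 9073 and 8275 tumor-like nuclei and dropped 820, 772, 151 and 438. A transcript of Nfib was then found in 59.3% of RP1 nuclei (exact 95% binomial interval 58.1% to 60.5%), 57.0% of RP2, 75.8% of RPC1 and 61.8% of RPC2 nuclei. For Nfia these shares were 3.45% (3.02% to 3.93%), 7.76%, 8.19% and 12.9%. Intervals cover counting error only. Nfic transcripts were found in 8.95% to 11.5% and Nfix transcripts in 4.07% to 9.85% of nuclei per animal, so that Nfia came second in RPC2 and last in RP1. Between 18.7% and 34.7% of nuclei held none of the 4. Without thinning, the shares of Nfib were 84.9%, 81.8%, 94.4% and 86.3% and those of Nfia 11.1%, 20.9%, 25.6% and 34.5%, at median depths of 2589, 2500.5, 3369 and 2960 transcripts. Macrophage or monocyte-like nuclei, an immune class, still showed Nfib transcripts in 33.2% to 43.1% of thinned nuclei, at unthinned median depths of 3345 to 4905. Summed over this class, the median neuroendocrine marker stood at 56.5% to 74.4% of its tumor-like level by animal. Nfib stood at 63.0% to 87.6%, and how much of it came from tumor RNA was not tested. Nfib and Nfix transcripts shared a thinned tumor-like nucleus 1.09, 1.32, 1.06 and 1.17 times as often as the product of their shares, whereas for Nfia and Nfib the ratio lay between 0.938 and 1.05. In sparse counts these ratios are descriptions only.

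Of the 4 members, Nfia varied most between classes. Over all nuclei, fibroblast-like nuclei had the highest mean Nfia level, with 975, 496, 825 and 521 CPM (704 ± 234 CPM). Club-like nuclei, named after the secretory cells of the airway, followed with 568.4, 438, 535 and 956 CPM (624 ± 228 CPM). Next came alveolar type 2-like nuclei at 430 ± 102 CPM, alveolar type 1-like nuclei at 399 ± 113 CPM, smooth muscle or pericyte-like nuclei at 368 ± 56.7 CPM, endothelial-like nuclei at 294 ± 56.9 CPM and macrophage or monocyte-like nuclei at 216 ± 88.2 CPM. The lowest levels were those of T or NK cell-like nuclei (102 ± 46.4 CPM), tumor-like nuclei and B cell-like nuclei (82.1 ± 31.4 CPM). Of the 9 neighbouring pairs in this order, only 3 differed in all 4 animals by more than the SD of their paired differences: smooth muscle or pericyte-like over endothelial-like, endothelial-like over macrophage or monocyte-like, and macrophage or monocyte-like over T or NK cell-like nuclei. The order rests in part on very deep sub-clusters, as described further on. Without them club-like (1538 CPM) and alveolar type 2-like nuclei (708 CPM) were above fibroblast-like nuclei, with as few as 16 and 18 nuclei in an animal. The club-like class also differed in make-up between animals. Its sub-clusters led by Pkhd1 or Col23a1 came mostly from RPC1 (226 of 287, 245 of 263 and 225 of 227 nuclei). Those led by Cbr2 held 16 of 191 and 22 of 139 nuclei from RPC1. The 4 club-like values therefore do not come from the same mix of sub-clusters.

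**Figure D1:**
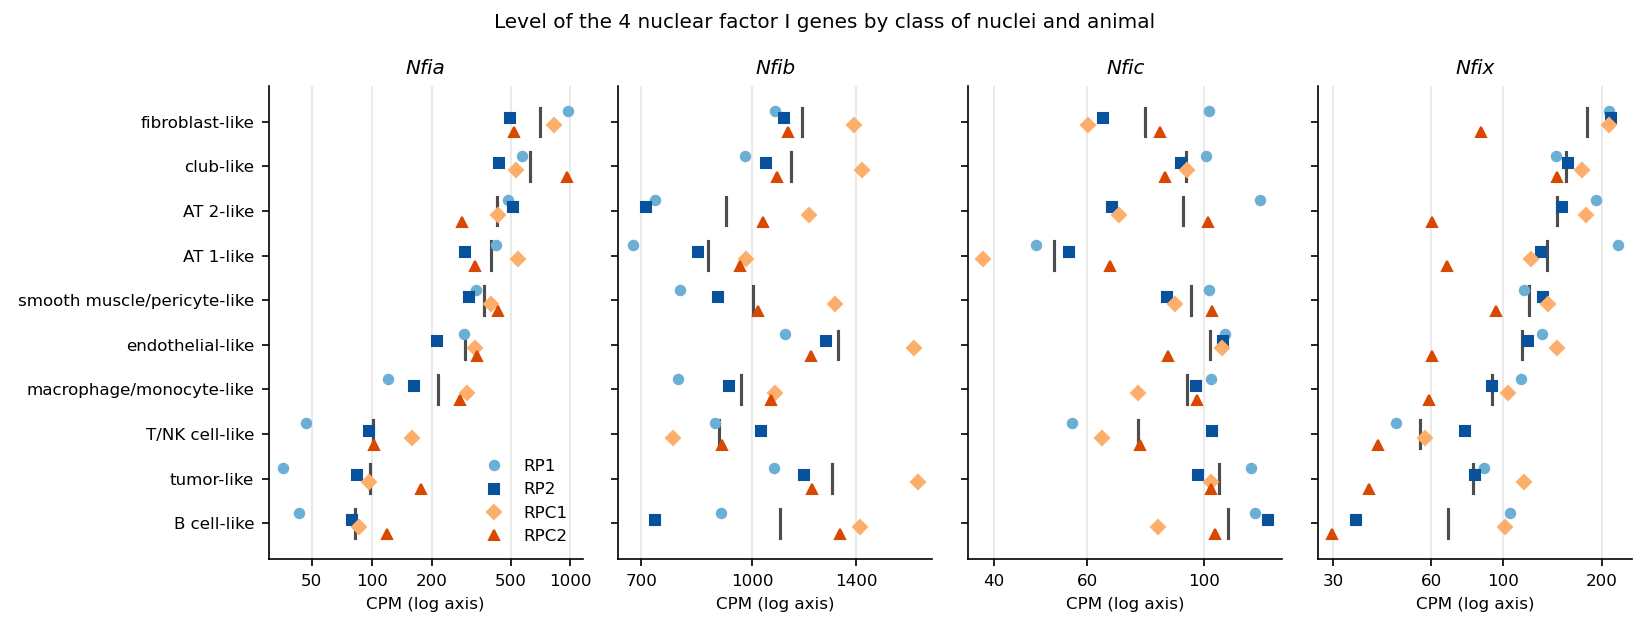
Each panel plots 1 gene, with the level in CPM on a logarithmic x axis and the classes of nuclei on the y axis. Symbols are the 4 animals and vertical bars the mean over animals. Over all nuclei, Nfia spans from 82.1 CPM in B cell-like to 704 CPM in fibroblast-like nuclei, whereas the means of Nfib lie between 866 and 1320 CPM.

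Over all nuclei, Nfib varied much less between classes. Endothelial-like nuclei had the highest mean, with 1111, 1271, 1687 and 1210 CPM (1320 ± 254 CPM), and overlapped tumor-like nuclei. Alveolar type 1-like nuclei had the lowest, with 681, 841, 981 and 962 CPM (866 ± 138 CPM). No neighbouring pair of classes in the order of Nfib differed by more than its spread. Without very deep sub-clusters the means of Nfib lay further apart. They then ran from 1482 CPM in endothelial-like to 360 CPM in macrophage or monocyte-like nuclei. For Nfic, means ran from 111 ± 22.5 CPM in B cell-like to 51.9 ± 11.9 CPM in alveolar type 1-like nuclei, and 2 of 9 neighbouring pairs passed the same criterion, alveolar type 2-like over fibroblast-like and T or NK cell-like over alveolar type 1-like. Nfix had its highest mean over all nuclei in fibroblast-like nuclei, at 211, 214, 211 and 85.3 CPM (180 ± 63.3 CPM), followed by club-like nuclei at 145, 157, 175 and 146 CPM (156 ± 13.9 CPM), and was lowest in T or NK cell-like nuclei at 55.4 ± 15.3 CPM. Only endothelial-like over macrophage or monocyte-like passed for Nfix. Without very deep sub-clusters, club-like (297 CPM) and alveolar type 2-like nuclei (225 CPM) were above fibroblast-like nuclei, with as few as 16 and 18 nuclei in an animal. RPC2 had the lowest Nfix level of the 4 animals in 9 of these 10 classes, club-like nuclei being the exception.

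Each class was then tested against the tumor-like nuclei of the same animals with edgeR's quasi-likelihood test, with the animal as a block and Benjamini-Hochberg adjustment over all genes. Nfia was higher than in tumor-like nuclei in 7 of 9 classes. Its log2 difference was 2.89 (SE 0.18, edgeR adjusted p = 7.84e-57) in fibroblast-like, 2.69 (SE 0.16, adjusted p = 2.16e-13) in club-like, 2.12 (SE 0.21, adjusted p = 4.22e-15) in alveolar type 2-like and 2.03 (SE 0.10, adjusted p = 3.71e-64) in smooth muscle or pericyte-like nuclei. It was 2.02 in alveolar type 1-like, 1.62 in endothelial-like and 1.15 (SE 0.12, adjusted p = 8.1e-08) in macrophage or monocyte-like nuclei. B cell-like (log2 difference −0.38, adjusted p = 0.107) and T or NK cell-like nuclei (−0.06, adjusted p = 0.923) did not pass. The sign in T or NK cell-like nuclei turned with DESeq2's size factors (0.09). Nfia also had to be read against the share of all genes that passed upwards, which was 9.49% for alveolar type 1-like, 6.37% for alveolar type 2-like, 5.4% for B cell-like, 10.9% for club-like, 8.62% for endothelial-like, 9.84% for fibroblast-like, 15% for macrophage or monocyte-like, 8.77% for smooth muscle or pericyte-like and 5.15% for T or NK cell-like nuclei. The median log2 difference over all tested genes lay between −0.24 and −0.09 in these fits. With DESeq2's size factors the median in T or NK cell-like nuclei moved from −0.22 to −0.08.

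Nfix followed the same direction at a smaller size. It was higher than in tumor-like nuclei in 6 classes, by 1.11 (SE 0.18, edgeR adjusted p = 1.72e-08) in fibroblast-like, 0.97 (SE 0.14, adjusted p = 8.73e-06) in club-like, 0.68 in alveolar type 2-like, 0.67 in alveolar type 1-like, 0.55 in smooth muscle or pericyte-like and 0.43 (SE 0.12, adjusted p = 0.00275) in endothelial-like nuclei on the log2 scale. It was lower in T or NK cell-like nuclei, by −0.78 (SE 0.24, adjusted p = 0.0156), a call that was lost with DESeq2's size factors, with DESeq2 itself and without RP1 or RPC1. Macrophage or monocyte-like (0.15, adjusted p = 0.372) and B cell-like nuclei (−0.26, adjusted p = 0.357) did not pass.

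Nfib moved the other way. It was lower than in tumor-like nuclei in 6 classes, by −0.69 (SE 0.12, edgeR adjusted p = 5.1e-07) in T or NK cell-like, −0.65 in alveolar type 1-like, −0.63 in alveolar type 2-like, −0.49 (SE 0.09, adjusted p = 9.27e-05) in macrophage or monocyte-like, −0.43 (SE 0.08, adjusted p = 7.81e-07) in smooth muscle or pericyte-like and −0.39 in B cell-like nuclei. Club-like (−0.25, adjusted p = 0.078), fibroblast-like (−0.19, adjusted p = 0.499) and endothelial-like nuclei (−0.05, adjusted p = 0.787) did not pass. Without RPC1, 3 of the 6 calls remained. Nfic was lower in 4 classes, by −0.96 (SE 0.23, adjusted p = 0.000344) in alveolar type 1-like, −0.78 in T or NK cell-like, −0.54 (adjusted p = 0.042) in fibroblast-like and −0.27 (adjusted p = 0.0412) in macrophage or monocyte-like nuclei, of which DESeq2 called 1. The share of all genes that passed downwards was 11.7% for alveolar type 1-like, 3.36% for alveolar type 2-like, 6.89% for B cell-like, 9.37% for club-like, 9.7% for endothelial-like, 8.48% for fibroblast-like, 17.7% for macrophage or monocyte-like, 10.6% for smooth muscle or pericyte-like and 6.18% for T or NK cell-like nuclei.

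**Figure D2:**
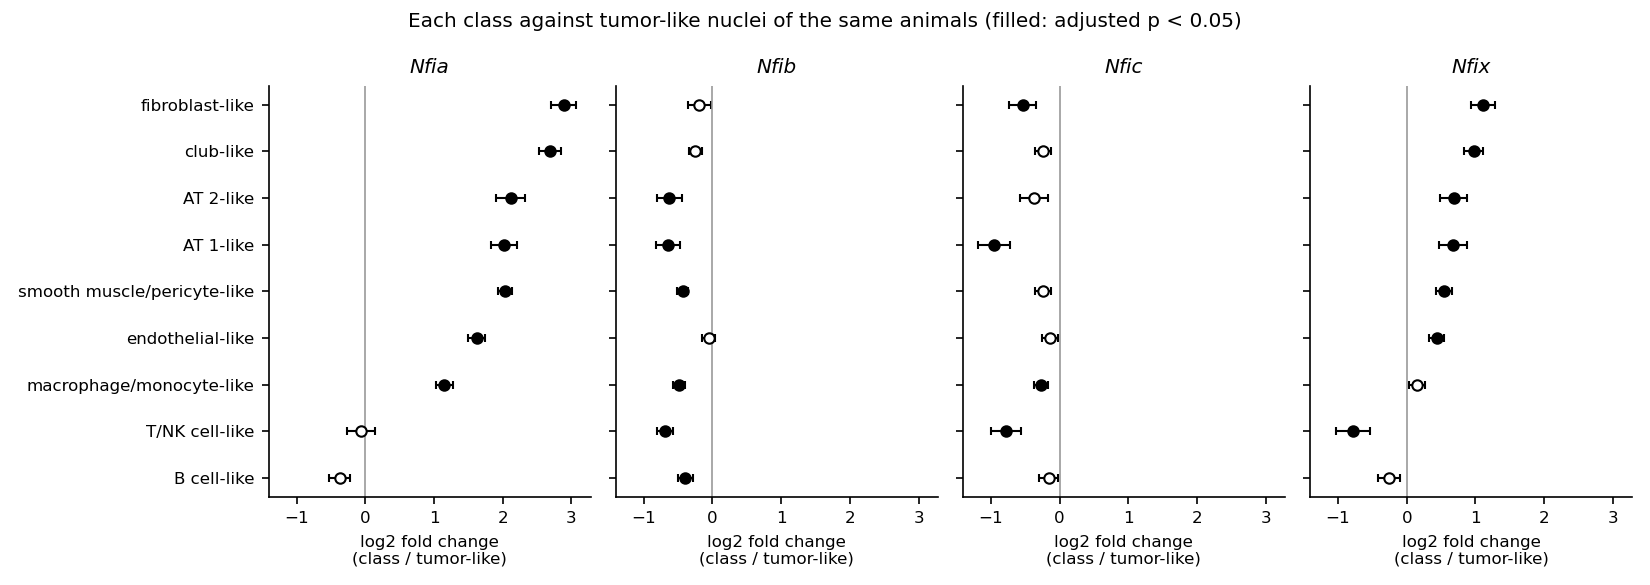
Log2 difference of each class from the tumor-like nuclei of the same animals (x axis) for the 4 genes, with bars of 1 SE from the edgeR fit. Filled points passed an adjusted p of 0.05: Nfia lies to the right in 7 classes and Nfix in 6, whereas Nfib lies to the left in 6.

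Transcripts of neuroendocrine genes were found in every class, at levels that differed between classes. Over the 36 combinations of the 9 classes and 4 animals, the median of the 14 neuroendocrine markers lay between 31.7% and 90.1% of the tumor-like level, with a median of 73.2%. Nfia exceeded its tumor-like level while all 14 markers were relatively lower in each animal of the 7 classes in which it was called, at 158% to 339% of the tumor-like level in macrophage or monocyte-like and 295% to 2727% in fibroblast-like nuclei. In endothelial-like nuclei Nfib stood at 98.8% to 108% of its tumor-like level and was above all 14 markers in each animal, whose median was 73.8% to 84.7%. In smooth muscle or pericyte-like nuclei, by contrast, Nfib (73.6% to 83.9%) lay where the markers lay (72.6% to 81.4%), and 6 to 8 of the 14 markers were below it. In B cell-like nuclei Nfib was above 4 to 12 of the 14 markers by animal and in T or NK cell-like nuclei above 1 to 10. How much of each level came from tumor RNA was not tested.

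**Figure D3:**
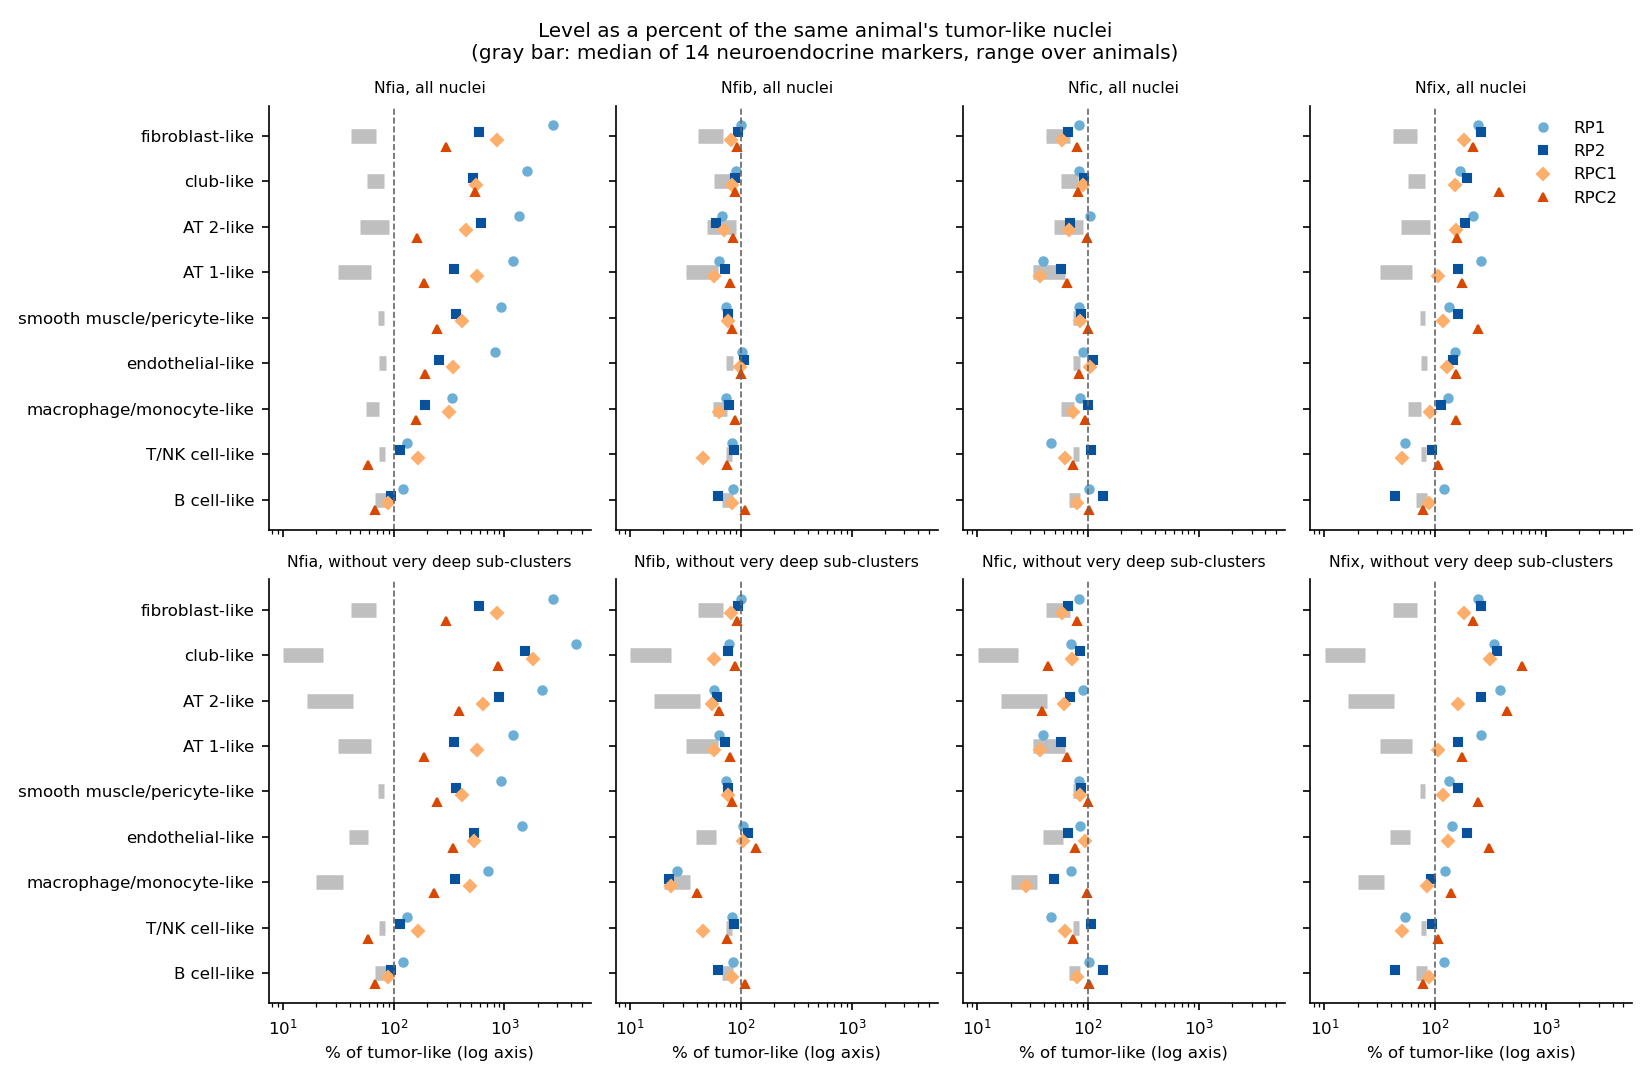
Level of each gene in each class as a percentage of its level in the tumor-like nuclei of the same animal, on a logarithmic x axis with 1 symbol per animal, over all nuclei (top) and without very deep sub-clusters (bottom). Gray bars span the median of the 14 neuroendocrine markers over animals and the dashed line marks 100%. In the top row Nfia lies above 100% in all 4 animals of 7 classes and Nfib in endothelial-like nuclei at 98.8% to 108%, and in the bottom row Nfib of macrophage or monocyte-like nuclei lies at 22.5% to 39.99%.

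Some sub-clusters of the alveolar type 2-, club-, endothelial- and macrophage or monocyte-like classes were far deeper than the rest. They held 11.3% to 66.2% of the nuclei and 42.7% to 95.4% of the transcripts of these classes per animal. When they were left out, a choice made after seeing the data, the neuroendocrine markers fell to 10.1% to 84.7% of the tumor-like level over all classes, with a median of 46.6%. The fits without them also left out the deepest tumor-like nuclei, whereas the percentages are taken against all tumor-like nuclei. In RP1 this left 16 club-like and 18 alveolar type 2-like nuclei, below the minimum of 20 used elsewhere. Nfia in club-like nuclei then reached 1578, 1289, 1754 and 1529 CPM (1538 ± 192 CPM), from 74 transcripts in RP1. Its log2 difference from tumor-like nuclei rose from 2.69 to 3.99 (SE 0.22, edgeR adjusted p = 1.63e-70). In endothelial-like nuclei it became 2.50 and in macrophage or monocyte-like nuclei 1.91. Nfix in club-like nuclei became 1.83. The largest move among the lower genes was that of Nfib in macrophage or monocyte-like nuclei, which went to 287, 266, 401 and 485 CPM (360 ± 103 CPM), 22.5% to 39.99% of the tumor-like level where the markers were at 20.1% to 34.5%, with a log2 difference of −2.03 (SE 0.15, adjusted p = 1.09e-15) in place of −0.49. Nfib also became lower in club-like nuclei (−0.63, adjusted p = 0.00771), while in endothelial-like nuclei, at 104% to 137% of its tumor-like level, it still did not pass (0.07, adjusted p = 0.786). Nfic passed in club-like (−0.69, adjusted p = 0.0211) and alveolar type 2-like nuclei (−0.83, adjusted p = 0.0163) and no longer in fibroblast-like nuclei (−0.52, adjusted p = 0.051). In RP1 it had only 4 transcripts in club-like and 6 in alveolar type 2-like nuclei.

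RPC and RP tumors were compared over the tumor-like nuclei, the question of the study being how loss of caspase 8 alters these tumors. No member differed beyond the spread between animals. On the TMM-scaled level, Nfia lay at 37.0 and 85.0 CPM in RP1 and RP2 and at 93.9 and 175 CPM in RPC1 and RPC2, so both RPC animals were above both RP animals, with a gap of only a few CPM between RP2 and RPC1. Its log2 difference was 1.14 (SE 0.48, edgeR adjusted p = 0.345), and 3.95% of the tested genes had a larger one. Nfib lay at 1111 and 1192 CPM in RP and 1658 and 1204 CPM in RPC animals, also without overlap, with a log2 difference of 0.31 (SE 0.21, adjusted p = 0.505). RP2 and RPC2 lay so close that they changed places on the unscaled level when the transcript Rn18s-rs5 was left out (1281 CPM in RP2 and 1278 CPM in RPC2), so the separation of Nfib depends on the scaling. Both RPC animals were above both RP animals for 24.8% of all genes tested and below them for 25.6%, and with Nfib resting on the scaling nothing is read from the 2 of 4 members. Nfic (126 and 98.4 against 100 and 102 CPM) differed by −0.15 (SE 0.17, adjusted p = 0.680), and Nfix (90.2 and 82.4 against 112 and 38.4 CPM) by −0.20 (SE 0.49, adjusted p = 0.869), and the groups overlapped for both. Across all 20113 genes tested, 0 (0%) passed and 3048 were below 0.05 before adjustment. DESeq2, which tested 16737 genes, passed 647, none of them a member. The study itself had used DESeq2 at its defaults on counts summed per sample, so the number of calls depends on the method.

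A single animal decided several of these values. Leaving out 1 animal at a time, the log2 difference of Nfia ranged from 0.64 to 1.86, that of Nfib from 0.07 to 0.54, that of Nfic from −0.32 to 0.04 and that of Nfix from −1.16 to 0.40. Nfix was positive only without RPC2 and most negative without RPC1, and Nfic was positive only without RP1. Without a small tumor-like cluster led by neuronal genes, most of it from RPC1, Nfix moved to −0.46, an alternative added after seeing the data.

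**Figure D4:**
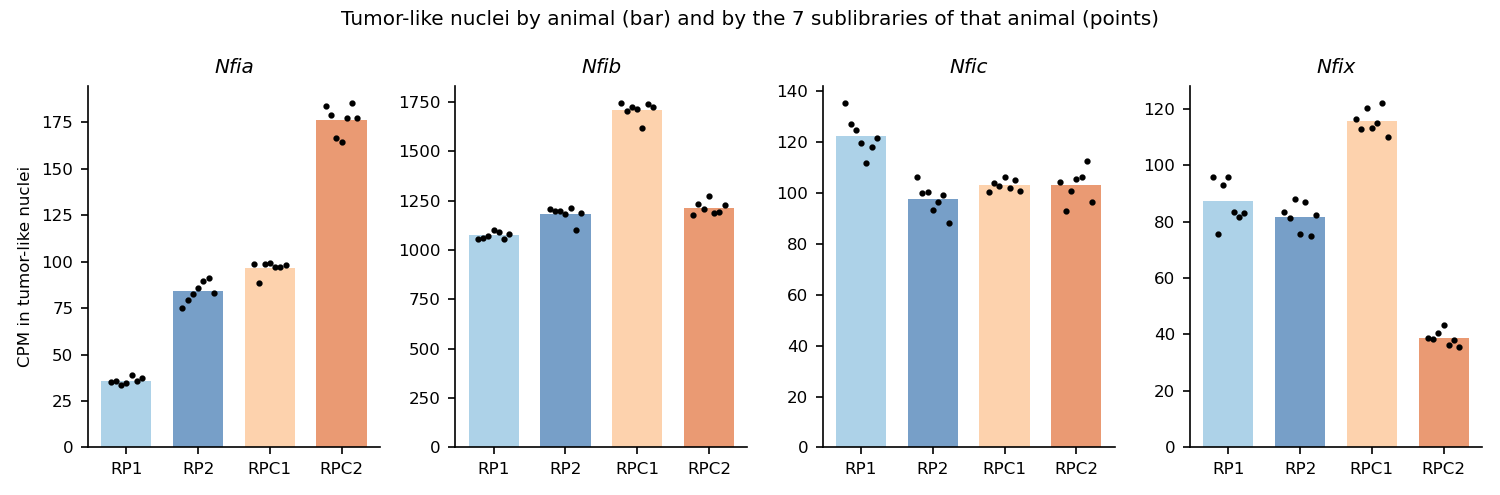
Level of the 4 genes in CPM in tumor-like nuclei of each animal (bars), with the values of the 7 sublibraries of that animal (points). Nfia runs from 35.8 CPM in RP1 to 176 CPM in RPC2, with overlapping sublibraries only between RP2 and RPC1, and Nfix is lowest in RPC2 at 38.7 CPM.

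For Nfia and Nfix the differences between most animals were also larger than those between sublibraries. Over the 7 sublibraries, Nfia in tumor-like nuclei ranged from 33.4 to 38.8 CPM in RP1, from 75.2 to 91.4 CPM in RP2, from 88.3 to 99.0 CPM in RPC1 and from 164 to 185 CPM in RPC2. The ranges of RP2 and RPC1 overlapped and the others did not. Nfix ranged from 35.7 to 43.4 CPM in RPC2 and from 110 to 122 CPM in RPC1, apart from each other and from RP1 (75.7 to 95.8 CPM) and RP2 (75.0 to 87.8 CPM). The 2 wells of RPC2 gave 173 and 180 CPM for Nfia and 38.1 and 39.4 CPM for Nfix, but the 2 wells of RP1 gave 66.5 and 101 CPM for Nfix. For Nfic the wells differed more than the animals did, with 81.1 and 150 CPM in RP1 and 79.0 and 113 CPM in RP2. Sublibraries and wells share the animal and are not biological replicates.

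Levels of the family also differed between clusters of a tumor. Tumor-like nuclei, 7000 per animal, fell into 11 clusters, of which 10 held at least 80% nuclei of 1 animal. They are called here by a leading gene, chosen after its values were seen, and described without a test. RP1 had 4 clusters of at least 200 nuclei. In the Nkain2 cluster Nfib reached 1262 CPM and Nfix 127 CPM, against 817 and 21.9 CPM in the Pdzrn3 cluster, 842 and 26.2 CPM in the Eya1 cluster and 918 and 96.5 CPM in the Thbs1 cluster. In RP2 the 9530002B09Rik cluster (1552 CPM Nfib, 112 CPM Nfix) was above the Thbs1 cluster (782 and 46.7 CPM) for both genes.

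Both genes were high in the same cluster in RPC1 as well, where the Grik2 cluster had 1966 CPM Nfib and 314 CPM Nfix, against 1671 and 85.2 CPM in the Dock1 cluster and 1688 and 92.9 CPM in the Parpbp cluster. In RPC2 the Dmc1 cluster had 1917 CPM Nfib and 55.5 CPM Nfix, the Gm29266 cluster 1306 and 42.3 CPM, and the Gria1 cluster 650 and 18.0 CPM. Among these larger clusters, the one highest in Nfib was also highest in Nfix in each of the 4 animals. Nfia did not go with them in RPC2, at 84.1 CPM in the Dmc1, 175 CPM in the Gria1 and 189 CPM in the Gm29266 cluster. The ratio of the highest to the lowest cluster within an animal was 2.40 to 5.79 for Nfix, 1.18 to 2.95 for Nfib, 1.24 to 2.25 for Nfia and 1.03 to 1.18 for Nfic, so Nfic was the most even member over these larger clusters. With clusters of at least 20 nuclei of an animal included, the ratios were 8.91 to 28.3 for Nfix, 1.85 to 8.92 for Nfib, 4.14 to 18.4 for Nfia and 1.58 to 2.86 for Nfic. Several of these rest on very few transcripts in the lowest cluster and are not reliable sizes. The 28.3 of Nfix rests on 1 transcript in 39 RPC2 nuclei of the Dock1 cluster. In the Dmc1 cluster, the 4.14 of Nfia rests on 2 transcripts in 40 RPC1 nuclei and the 2.86 of Nfic on 3 in 47 RP1 nuclei. The highest Nfia value, 1547 CPM in RPC2 nuclei of the 9530002B09Rik cluster, came from 206 transcripts in 48 nuclei.

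**Figure D5:**
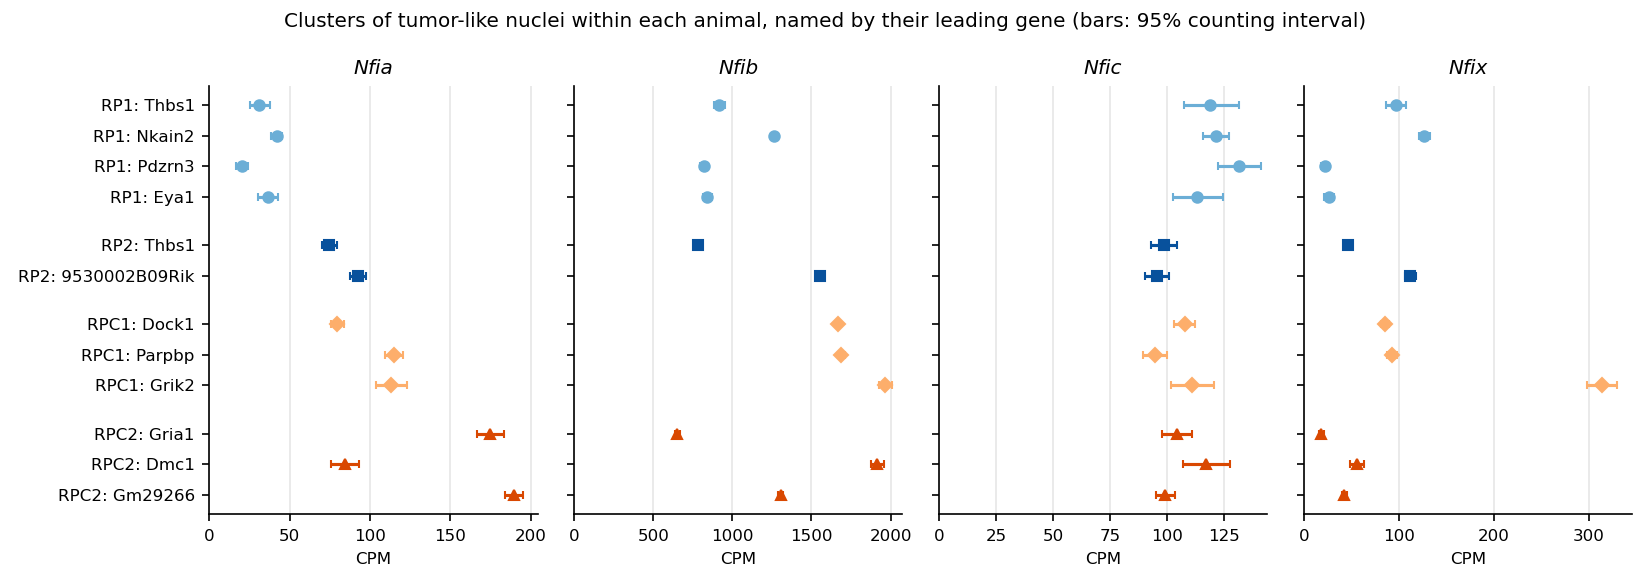
Level of each gene in CPM on a linear x axis in the clusters of tumor-like nuclei with at least 200 nuclei of an animal, with 95% counting intervals as bars. Nfib spans 650 to 1917 CPM in RPC2 and Nfix spans 21.9 to 127 CPM in RP1, whereas Nfic stays between 94.6 and 132 CPM.

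In the other 9 classes no member differed between the genotypes in any of the 35 tests that could be made (Nfix had too few counts in T or NK cell-like nuclei). The share of all genes that passed was 0% in alveolar type 1-like, 0% in alveolar type 2-like, 0.09% in B cell-like, 0.0086% in club-like, 0.105% in endothelial-like, 0% in fibroblast-like, 0.00852% in macrophage or monocyte-like, 0.0597% in smooth muscle or pericyte-like and 0% in T or NK cell-like nuclei. Nfia in macrophage or monocyte-like nuclei came nearest, at 121 and 163 CPM in RP1 and RP2 and 303 and 279 CPM in RPC1 and RPC2, with a log2 difference of 0.92 (SE 0.20, edgeR adjusted p = 0.297). It passed only without the filter on low counts (0.95, adjusted p = 0.00393). The log2 difference of Nfia in the remaining classes ran from −0.56 (adjusted p = 0.395) in alveolar type 2-like to 0.90 (adjusted p = 0.504) in B cell-like nuclei.

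Whether the genotype difference of Nfia was larger in tumor-like than in endothelial-like nuclei was tested directly by an interaction term. It was, by 0.80 on the log2 scale (SE 0.21, edgeR adjusted p = 0.0481), 0.33% of the 19070 genes tested having passed. In endothelial-like nuclei Nfia lay at 291 and 214 CPM in RP1 and RP2 and at 333 and 337 CPM in RPC1 and RPC2, against the more than 4-fold span of the tumor-like nuclei. The call rested on RP1 and RPC2: without RP1 the value was −0.06 (adjusted p = 1), and without RPC2 it was 0.41 (adjusted p = 1). Without very deep nuclei it was 0.92 (adjusted p = 0.162), and DESeq2 gave 0.82 (adjusted p = 1). The other 3 members had an adjusted p of 1.

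The genes next to a member were read beside it, and whether a stretch of the chromosome moved with it was not tested. Of the 10 nearest tested genes around each member, 5 on either side, 0 passed in the comparison of RPC and RP. Values in this paragraph are log2 differences of an animal from the mean of the other animals. In RP1, where Nfia was at −1.65, its 10 neighbours, among them Cyp2j6, E130114P18Rik, Tm2d1, Patj and Usp1, had a median of −0.14. In RPC2, where Nfia was at 1.27, they had a median of 0.11, with 8 of 10 above 0. Nfix in RPC2 was at −1.28, and its neighbours, among them Ier2, Nacc1, Trmt1 and Calr, at a median of −0.09. In RPC1 the values were 0.67 for Nfix and −0.27 for its neighbours. Nfib in RPC1 was at 0.50, while its neighbours, among them Mpdz, Zdhhc21, Cer1, Frem1 and Ttc39b, had a median of −0.13. The Nfic neighbours, such as Fzr1, Celf5, Gna11 and Tle5, stood at −0.30 to 0.40 by animal and Nfic itself at −0.15 to 0.33.

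Among the members, Nfia and Nfix were the pair that moved together. Over 47 sums of 1 class in 1 animal, Pearson's r of log2(CPM + 5) was 0.63 (Spearman's rho 0.71) for Nfia and Nfix, −0.25 for Nfia and Nfic, 0.19 for Nfib and Nfic, 0.08 for Nfia and Nfib, 0.05 for Nfib and Nfix and −0.15 for Nfic and Nfix. The points share animals, libraries and tumor RNA, so these values are descriptions. Of 7805 genes compared, Nfia was most like Osmr (r = 0.88), the oncostatin M receptor, Klf9 (0.86), a zinc finger transcription factor, the long noncoding Mir99ahg (0.85), Fmo2 (0.82), a monooxygenase of the lung, and 9530026P05Rik (0.82). Nfix was most like Tspan9 (0.71), a tetraspanin, Osmr (0.71), Yap1 (0.71), the effector of Hippo signalling, Sh3rf1 (0.70) and Dock1 (0.70), so Osmr was shared with Nfia. Nfib had looser companions, Vwf (0.73), which encodes von Willebrand factor, Peg3 (0.73), Sdk1 (0.71), Wnt5b (0.71) and Chaf1b (0.70), a chromatin assembly factor. Nfic was nearest to Cfl1 (0.66), which encodes cofilin, the elongation factor Eef2 (0.65), 4933434E20Rik (0.64), Bsn (0.64) and Sp3 (0.64).

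Genes known as NFI targets in other tissues were read from the same comparison of RPC and RP tumor-like nuclei. Of 17 listed targets 15 could be tested, 7 higher and 8 lower in RPC, with a median log2 difference of −0.09 beside −0.01 for all genes, and 0 passed, as for every gene in that fit. The 4 with the highest level were Cdh2, N-cadherin (423, 377, 413 and 411 CPM), Ezh2, the histone H3K27 methyltransferase (289, 209, 232 and 219 CPM), Scgb1a1, the club cell secretoglobin (4.52, 12.6, 23.2 and 35.8 CPM, log2 difference 1.78, edgeR adjusted p = 0.287), and Pdpn, podoplanin (29.6, 2.57, 0.788 and 3.77 CPM, −2.83, adjusted p = 0.370). RP1 alone was high for Pdpn, and Scgb1a1 and Pdpn are also markers of the club- and alveolar type 1-like classes. Of 6 upstream factors and partners 5 could be tested, 4 higher and 1 lower, with a median of 0.23, and 0 passed. Among them were the lung forkhead factors Foxa2 (32.4, 34.8, 31.2 and 47.6 CPM, 0.23) and Foxa1 (29.9, 25.4, 36.0 and 28.5 CPM, 0.22) and Pax6 (0.411, 0.220, 0.678 and 1.15 CPM, log2 difference 1.53, adjusted p = 0.304), a neural and eye factor.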

How the data were processed

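Nuclei of 4 tumors were profiled with a split-pool kit. The authors aligned the reads to GRCm39 with the kit maker's pipeline and deposited counts of transcripts per gene and nucleus for each animal, with nothing normalized. Each of the 7 libraries held all 4 animals, so the animal came from the deposited tables, and 8 of 12 metadata columns were not used. Nuclei with at least 300 transcripts, at most 10% mitochondrial transcripts and at most 12000 genes were kept. Clusters (scanpy 1.11.5, leidenalg 0.10.2, Python 3.11.15) were named from fixed marker lists by a rule set after the clusters were seen, clusters without a score over 0.5 for another cell type being called tumor-like, and 334 to 519 nuclei per animal stayed unnamed. No doublet caller was run, and very deep sub-clusters were left out as an added alternative.

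Counts were summed per animal and class and tested with edgeR 4.0.16 (R 4.3.3) by the quasi-likelihood test, two-sided, with TMM scaling, the default filter on low counts and Benjamini-Hochberg adjustment over all genes at 0.05, and DESeq2 1.42.0 was an alternative. P-values of the genotype comparisons measure the spread between 2 animals per genotype. Those of the class comparisons measure the spread of class differences within the 4 animals, and the interaction test also uses differences within animals. The fits were tested on simulated data with 200 changed genes, in which the spread was set and not taken from the animals. At a 2-fold change the genotype fit recovered 0% of them, the interaction fit 0% and the fit of endothelial-like against tumor-like nuclei 44%. At a 4-fold change these values were 97.5%, 42.5% and 99.5%, with 10, 1 and 10 unchanged genes called. Levels are CPM of the sums. The members, the gene lists and the rule for named genes (the members, their 5 most similar genes, their 5 nearest tested genes on each side, and listed genes that passed or otherwise the 4 of highest level) were chosen with earlier results of these data known. Promoter sequences came from RefSeq. A few genes that the rule names are not reported here.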

Additional observations from a re-analysis of the deposited data

Results flagged for a closer look

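The level of each member in tumor-like nuclei was compared between the 7 sublibraries of each animal, 16 groups in all, of which 3 held 1 value far from the others. Chance flags about 1 in 20 such groups. For Nfia in RPC1, 1 sublibrary had 88.3 CPM and the others 97.0 to 99.0 CPM. For Nfib in RP2, 1 sublibrary had 1100 CPM and the others 1180 to 1212 CPM. For Nfib in RPC1, 1 sublibrary had 1619 CPM and the others 1705 to 1743 CPM.

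The genotype difference of Nfia was larger in tumor-like than in endothelial-like nuclei by 0.80 on the log2 scale (edgeR adjusted p = 0.0481), and the call was lost without RP1 or RPC2.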

How the results depend on the processing

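Of 511 values of single members under an alternative, 431 kept their direction and side of the threshold, 48 lost their call, 8 gained one and 24 turned. The cause of these changes was not tested. With 2 animals per genotype, differences between genotypes near the size of that of Nfia in tumor-like nuclei (1.14) could not be resolved. The alternatives on very deep nuclei and on the neuronal-gene cluster were chosen after seeing the data.

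Genes called between RPC and RP tumor-like nuclei were 0, 10 without the filter on low counts, 647 with DESeq2 and 0 to 3 without 1 animal (3 without RPC2). Over the other classes they were 24, then 2063, 234 and 94 to 1300, and the members called among them 0, and 1 without the filter. Calls of each class against tumor-like nuclei were 30350, 10937 without the replicate block and 22491 to 26496 without 1 animal. Interaction calls were 63, 9 with DESeq2 and 50 to 102 without 1 animal. The classes with Nfia higher stayed at 7 without 1 animal, those with Nfib lower went from 6 to 0 without the block and 3 to 6 without 1 animal, those with Nfic lower from 4 to 1 with DESeq2, 1 without the block and 2 to 3 without 1 animal, those with Nfix higher from 6 to 0 without the block and 4 to 6 without 1 animal, and those with Nfix lower from 1 to 0 with DESeq2's size factors, with DESeq2, without the block and without RP1 or RPC1 (0 to 1). In the class comparisons the block is the animal itself. Between the genotypes the shared replicate numbers only name animals, and over 20113 genes the deviations of same-numbered animals from their group means correlated at −0.05. Pairing them as a replicate block called 0 genes, with Nfia at 1.19, Nfib at 0.30, Nfic at −0.14 and Nfix at −0.39.

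Nfia transcripts were found in a mean of 23.0% of tumor-like nuclei without thinning, Nfib in 86.9%, Nfic in 31.6% and Nfix in 21.97%, and at 500 transcripts Nfib in 43.6%, Nfic in 5.24% and Nfix in 3.79%. Per kilobase of exon the mean shares of Nfib and Nfic were 68.6% and 14.3%. Of the 5 most similar genes, 3 remained for Nfia with an offset of 1 CPM, and 2, 0 and 3 for Nfib, Nfic and Nfix by rank.

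Without 1 animal, the genotype difference in tumor-like nuclei ranged from −1.16 to 0.40 for Nfix and from −0.32 to 0.040 for Nfic. That of Nfia ranged from −0.13 to 0.52 in alveolar type 1-like, −0.0090 to 0.84 in club-like and −0.63 to 0.35 in fibroblast-like nuclei, and its difference between T or NK cell-like and tumor-like nuclei from −0.31 to 0.26. The interaction ranged from −0.063 to 1.55 for Nfia, −0.098 to 0.28 for Nfix, −0.072 to 0.15 for Nfib and −0.19 to 0.26 for Nfic, and without very deep nuclei it was −0.32 for Nfix, −0.20 for Nfib and −0.22 for Nfic. Against tumor-like nuclei, Nfib in endothelial-like nuclei turned to 0.017 with DESeq2's size factors, 0.016 with DESeq2 and 0.074 without very deep nuclei, Nfix in macrophage or monocyte-like nuclei to −0.074 without very deep nuclei, and Nfia in T or NK cell-like nuclei to 0.089 with DESeq2's size factors, 0.10 with DESeq2 and 0.022 at a finer clustering.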
